A study of Mus musculus with 17 samples.

Results

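The 40 genes described here encode proteins that carry a cell through mitosis, and they are followed through 17 RNA-seq libraries of mouse CD8 T cells. They were taken by symbol from a fixed list of mitotic cyclins, kinases, spindle, kinetochore and cytokinesis genes. The rule uses symbols and no measured values, but the list was drawn up with earlier results of these data known. All 40 were found among the 24594 genes of the count tables, and all 40 were among the 13881 genes that passed the filter on low counts.

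Entry into mitosis is driven by cyclin-dependent kinase 1 bound to A- and B-type cyclins, after CDC25 phosphatases remove inhibitory phosphates from the kinase. Aurora and Polo-like kinases then build the spindle, the spindle checkpoint holds anaphase until every kinetochore is attached, and the anaphase-promoting complex with Cdc20 ends mitosis by having cyclin B and securin degraded. Most of these genes are transcribed late in the cell cycle and are repressed in resting cells, so in T cells their RNA is widely used as a sign of dividing cells.

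The labels describe spleen CD8 T cells of the genotype CD8+Thy1.1+ in each of the groups, which differ only in the genetic modification. Rosa KO, with 5 libraries, served as the control for Asxl1 KO, Dnmt3a KO and Tet2 KO, which had 4 libraries apiece. Asxl1 belongs to the Polycomb deubiquitinase, Dnmt3a writes new DNA methylation and Tet2 starts its removal by oxidation. The series title names regulators of clonal hematopoiesis and stemness under immunotherapy. How each gene was disrupted, the age of the mice and whether replicates are separate animals are not stated in the labels. P-values therefore measure the spread between libraries, which may be technical. A library is named by its group and the replicate number of its label, as in Tet2 KO 3.

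Library numbers in the labels fall into 3 runs, which the labels do not call batches. Run 1 held Rosa KO 1, Asxl1 KO 1 and Dnmt3a KO 1 and 2. Run 2 held Asxl1 KO 2, Dnmt3a KO 3 and 4 and Tet2 KO 1 and 2. Run 3 held Rosa KO 2 to 5, Asxl1 KO 3 and 4 and Tet2 KO 3 and 4. Run 2 has no Rosa KO library and run 3 no Dnmt3a KO library, so Dnmt3a KO meets its control directly only against Rosa KO 1, and Tet2 KO only within run 3. The groups were compared in a model with group and run as terms.

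Total counts lay between 6625833 (Rosa KO 5) and 40701203 (Rosa KO 4), and the mitosis genes together held 14696 to 128073 counts in a library. The summed level of 8 CD8 T cell markers was 4640 to 12200 CPM (counts scaled to library size after TMM normalization), and none of the 8 was at 0 in any library. RNA of the targeted genes overlapped with Rosa KO in each knockout: Asxl1 was at 70.3 to 146 CPM in Asxl1 KO and 82.1 to 161 in Rosa KO, Dnmt3a at 71.7 to 115 and 27.6 to 103, and Tet2 at 125.1 to 254 and 138 to 186. These levels do not check the labels if the disruption leaves the transcript in place, which the labels do not state. The summed level of 12 B cell markers ran from 126.3 CPM (Tet2 KO 2) to 2500 CPM (Rosa KO 3 and 4), with none of the 12 at 0 in any library. The summed level of 10 erythroid markers was 493 to 3000 CPM in run 1, highest in Asxl1 KO 1, and 51.1 to 195 CPM in runs 2 and 3, with the erythroid genes Klf1 at 0 in 6 libraries and Rhag at 0 in 12. B cells and erythroid precursors can divide as well, and in bulk RNA a change in the number of dividing cells and a change in RNA per dividing cell cannot be told apart.

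Rosa KO libraries held the mitosis genes within a narrow band, while Asxl1 KO 2, the run 1 pair of Dnmt3a KO and the run 3 pair of Tet2 KO lay well above it. The mean log2 CPM over the 40 genes was 5.05, 4.55, 4.90, 4.67 and 4.71 in Rosa KO 1 to 5. It was 5.12, 5.77, 5.14 and 5.23 in the Asxl1 KO libraries in the same order, 5.98, 6.11, 4.08 and 4.96 for Dnmt3a KO, and 4.38, 4.89, 6.09 and 5.90 for Tet2 KO. The 4 Asxl1 KO libraries lay above the 5 Rosa KO libraries by this mean, 3 of them by less than the SD of Rosa KO. Dnmt3a KO split into a high pair in run 1 and a pair in run 2 of which one lay below the Rosa KO range, and Tet2 KO split into a high pair in run 3 and a run 2 pair inside and below that range. The spread was 0.197 in Rosa KO (SD, n = 5) against 0.306 in Asxl1 KO, 0.95 in Dnmt3a KO and 0.816 in Tet2 KO (SD, n = 4 each). These SDs hold unlike parts of the spread between runs. Rosa KO 2 to 5 are all from run 3, while each knockout group is divided between runs.

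**Figure D1:**
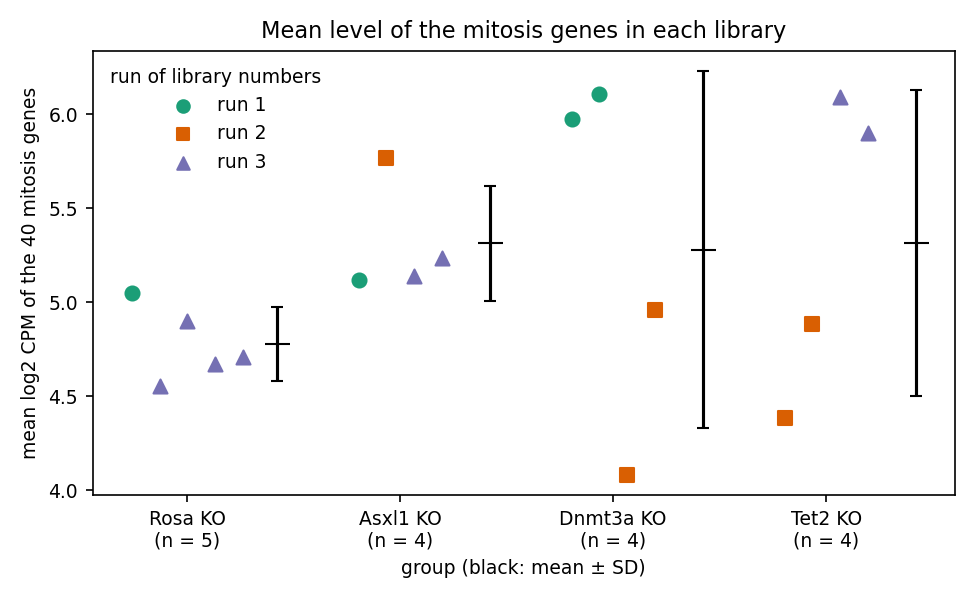
Mean log2 CPM of the 40 mitosis genes in each library (vertical axis) by group (horizontal axis), with colour and marker for the run of library numbers and black bars for the group mean ± SD. The Rosa KO libraries lie between 4.55 and 5.05, and both Dnmt3a KO and Tet2 KO hold a high and a low pair that belong to different runs.

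**Figure D2:**
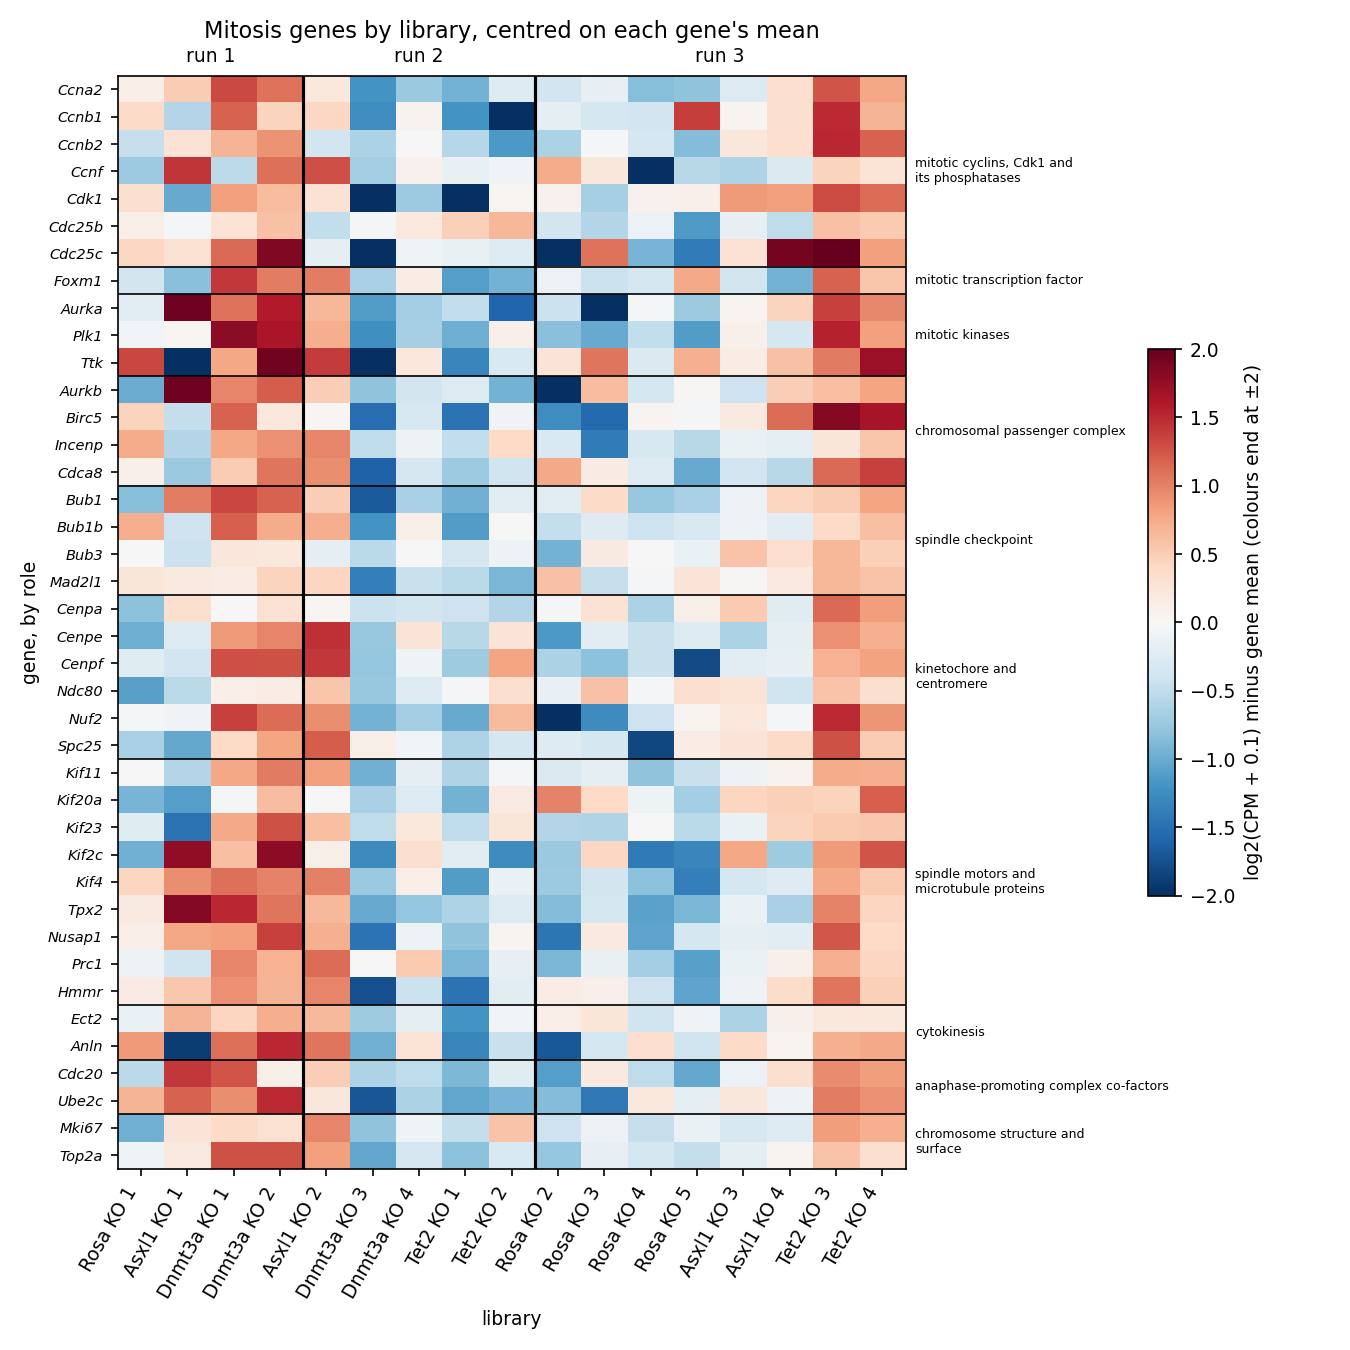
log2(CPM + 0.1) of each of the 40 genes (rows, by role) in each of the 17 libraries (columns, by run), minus the gene's mean over the libraries, with colours ending at ±2. Dnmt3a KO 1 and 2, Asxl1 KO 2 and Tet2 KO 3 and 4 are mostly above the gene means, Dnmt3a KO 3 and Tet2 KO 1 mostly below, and Asxl1 KO 1 mixes strong positive and negative deviations.

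Members of the set moved together over the libraries. As a description, the Pearson correlation of a gene's log2 CPM with the mean of the other members had a median of 0.736 over the 17 libraries, and 35 of 40 genes were above 0.5. Top2a (0.94), Kif11 (0.938), Plk1 (0.93) and Ccna2 (0.92) followed the set most closely. Cdc25b (0.335), Ccnf (0.393), Ndc80 and Ttk (0.425 each) and Kif20a (0.434) followed it least. These points share libraries, runs and scaling. Per kilobase of exon, the mean level over the 17 libraries was highest for Mki67 (84.6 CPM per kb) and Top2a (54.1), followed by Ccnb2 (29.9), Ccna2 (21.6), Kif11 (20.8), Ube2c (20.1), Bub3 (19.2) and Cdc25b (18.5), and lowest for Cdc25c (1.45).

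The promoters of these genes are shown because the genes move together and because their control in the cell cycle is known to pass through shared elements. The CHR (cell cycle genes homology region) is bound by the DREAM repressor in resting cells and by MuvB complexes with B-MYB and FOXM1 in dividing cells, and the CCAAT box by NF-Y. RefSeq promoter windows of GRCm38.p6, from 250 bases before to 50 bases after the start, were matched for 33 of the 40 genes. The 7 without an entry are Ccna2, Cdc25c, Foxm1, Aurkb, Incenp, Kif20a and Tpx2. Below are 6 windows, 5′ to 3′ on the strand of the gene, with matches in capitals on either strand to the CHR (TTTGAA, or TTCAAA read on the other strand), its variant TTTAAA, the CCAAT box (CCAAT or ATTGG) and an E2F element (TTCCCGC or TTGGCGC, and their reverse complements). CCAAT and ATTGG can overlap, as in the run CCAATTGG of Ube2c, and ATTGG can share letters with TTGGCGC.
Ccnb2: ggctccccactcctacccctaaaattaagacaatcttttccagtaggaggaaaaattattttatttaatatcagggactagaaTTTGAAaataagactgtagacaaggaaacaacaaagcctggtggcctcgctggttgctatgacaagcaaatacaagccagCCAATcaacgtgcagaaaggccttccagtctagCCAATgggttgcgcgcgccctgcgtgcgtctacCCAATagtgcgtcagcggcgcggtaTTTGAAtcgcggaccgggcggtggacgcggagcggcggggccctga
Cdk1: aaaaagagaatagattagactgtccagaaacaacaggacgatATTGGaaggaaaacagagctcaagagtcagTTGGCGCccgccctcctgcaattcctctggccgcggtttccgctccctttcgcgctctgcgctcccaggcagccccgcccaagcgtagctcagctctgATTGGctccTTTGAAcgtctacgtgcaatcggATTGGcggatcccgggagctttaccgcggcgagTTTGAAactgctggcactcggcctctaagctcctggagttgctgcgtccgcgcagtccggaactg
Cdc25b: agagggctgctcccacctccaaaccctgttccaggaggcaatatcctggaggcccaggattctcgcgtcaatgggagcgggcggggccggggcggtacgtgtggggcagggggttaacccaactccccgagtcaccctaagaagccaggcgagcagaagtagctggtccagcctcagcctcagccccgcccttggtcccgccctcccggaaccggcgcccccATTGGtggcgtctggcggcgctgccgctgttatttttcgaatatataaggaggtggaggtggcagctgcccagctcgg
Plk1: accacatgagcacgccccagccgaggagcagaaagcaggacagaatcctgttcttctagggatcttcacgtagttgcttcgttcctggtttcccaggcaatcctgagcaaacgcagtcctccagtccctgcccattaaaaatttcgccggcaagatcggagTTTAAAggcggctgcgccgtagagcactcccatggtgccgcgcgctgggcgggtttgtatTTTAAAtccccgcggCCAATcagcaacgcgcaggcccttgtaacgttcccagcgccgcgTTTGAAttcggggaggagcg
Cdc20: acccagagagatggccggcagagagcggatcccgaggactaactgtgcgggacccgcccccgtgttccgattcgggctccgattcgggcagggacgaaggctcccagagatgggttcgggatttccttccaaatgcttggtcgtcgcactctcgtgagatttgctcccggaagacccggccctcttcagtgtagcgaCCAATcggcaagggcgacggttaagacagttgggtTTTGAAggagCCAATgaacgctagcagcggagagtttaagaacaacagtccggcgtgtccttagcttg
Ube2c: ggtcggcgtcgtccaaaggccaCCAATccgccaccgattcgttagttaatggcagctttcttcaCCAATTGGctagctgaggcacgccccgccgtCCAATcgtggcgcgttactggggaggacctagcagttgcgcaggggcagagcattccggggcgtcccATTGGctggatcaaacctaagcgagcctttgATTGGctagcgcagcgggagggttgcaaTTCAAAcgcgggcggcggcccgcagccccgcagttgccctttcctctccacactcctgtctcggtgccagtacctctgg
These windows lie at chr9:70421505-70421804 (minus strand) for Ccnb2, chr10:69352863-69353162 (minus) for Cdk1, chr2:131186698-131186997 (plus) for Cdc25b, chr7:122159185-122159484 (plus) for Plk1, chr4:118437294-118437593 (minus) for Cdc20 and chr2:164769679-164769978 (plus) for Ube2c.

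Ccnb2 shows the classical arrangement, with 3 CCAAT boxes spaced by 33 bases each and a TTTGAA whose first base lies 4 bases after the start. Cdk1 has a TTTGAA at -15 and another at -71, and Cdc20 has a TTTGAA at -18 between CCAAT boxes at -53 and -8. Plk1 carries TTTGAA at 30 bases after the start and TTTAAA at -29 and -89, and Ube2c has 6 CCAAT matches and a TTTGAA at -29. Cdc25b has a single CCAAT match at -28 and neither form of the CHR in its window. That window begins at 131186698 on chromosome 2, inside the gene, whose own start is at 131186436. The sequence before that gene start was therefore not searched. The other genes with neither form in their window were Bub1, Mad2l1, Nuf2 and Nusap1. Their correlation with the rest of the set lay between 0.651 (Mad2l1) and 0.88 (Nusap1), against 0.335 for Cdc25b.

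Over the 33 windows, TTTGAA was found in 25 (75.8%), against 18.1% of the 27025 windows of all genes. It lay in the last 100 bases of the window in 23 of 33 (69.7%), against 4.92% of all windows. CCAAT was found in 26 of 33 (78.8% against 37.9%), at least 2 CCAAT in 19 (57.6% against 12.2%), and both TTTGAA and CCAAT in 22 (66.7% against 7.12%). TTTAAA was found in 9 (27.3% against 13.2%). TTCCCGC was in none of the 33 (4.66% of all windows), and TTGGCGC in 4 (12.1% against 2.54%). A match describes letters in the window and is not a bound site.

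**Figure D3:**
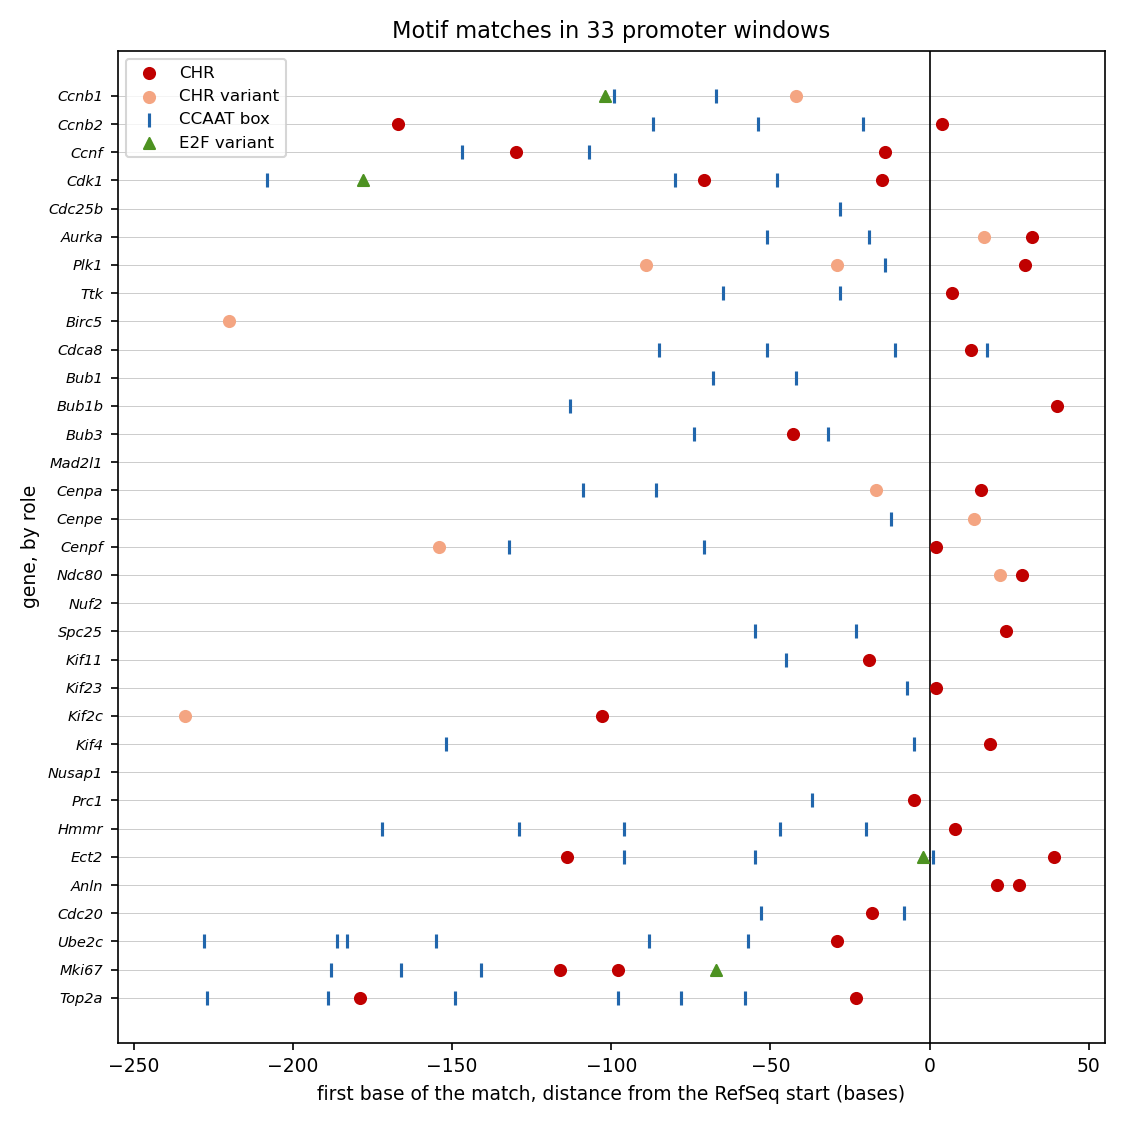
Positions of motif matches in the promoter windows of 33 mitosis genes (rows, by role), as the distance in bases of the first base of the match from the RefSeq start (horizontal axis). TTTGAA matches (CHR) gather within the last 100 bases of the window in 23 of 33 genes. Of these 23, Anln and Ndc80 have no CCAAT match, and some, such as Cdc20 and Cdca8, have a CCAAT match after the TTTGAA as well as before it.

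Targeting Tet2 was compared with Rosa KO to ask whether mitosis genes differed, and 4 of the 40 were higher: the B-type cyclin gene Ccnb2, the A-type cyclin gene Ccna2, the phosphatase gene Cdc25b and the spindle assembly gene Tpx2. Across all tested genes 0.987% were higher in Tet2 KO by the same edgeR test (adjusted p under 0.05). The calls over all genes in either direction were 204, and ranged from 33 without Tet2 KO 3 to 363 without Asxl1 KO 1. No mitosis gene was lower (0.483% of all genes). The fitted log2 fold change was above 0 for 40 of 40 genes (48.4% of all genes), with a median of 0.92 and a range of 0.09 (Ect2) to 1.92 (Cdc25c), where the median of all genes was -0.02. At an unadjusted p under 0.05, 22 were higher (6.76% of all genes) and none lower (5.43%).

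Run 3 is the only run with both groups. There Tet2 KO 3 and 4 lay above each of the 4 Rosa KO libraries for 30 of 40 genes (13.5% of all genes) and below them for none (10.6%), with a median difference of 1.27 on the log2 scale. In run 2, which has no Rosa KO library, Tet2 KO 1 and 2 lay above both Dnmt3a KO libraries for 3 genes (18.4% of all genes) and below for 3 (18%). A fit on the 8 libraries of run 3 called 18 of 40 higher (1.8% of all genes), and the fit of all libraries without a run term called 0 (0.166% of all genes in either direction). Without Tet2 KO 3 or without Tet2 KO 4 no mitosis gene passed, and without Asxl1 KO 2 there were 14. Without Rosa KO 1, 4 or 5, or without Dnmt3a KO 2, there were 2. Within run 3 the erythroid sum was 123 and 123.9 CPM in Tet2 KO and 90 to 140 CPM in Rosa KO, and the B cell sum was 2370 and 2240 CPM against 2290 to 2500 CPM, so neither sum exceeded the controls. The sum of 10 myeloid markers was 878 and 787 CPM against 443 to 778 CPM. As a mean log2 CPM, erythroid markers were at 1.10 and 1.56 against 0.66 to 1.33, and neutrophil markers at 2.72 and 1.89 against 1.76 to 1.99. The part of these cells in the result was not tested.

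In Asxl1 KO, no mitosis gene passed the edgeR test against Rosa KO, where 1.64% of all genes were called and 0.814% were higher. The fitted change was nevertheless above 0 for 40 of 40 genes (50% of all genes), with a median of 0.85 and a range of 0.06 (Cdc25b) to 1.79 (Aurka), against a median of 0 to 2 decimals over all genes (0.00043). At an unadjusted p under 0.05, 15 were higher (8.31% of all genes) and none lower (7.4%), the lowest adjusted p was 0.0643 (Tpx2), and DESeq2 called 4 higher (2.2% of all genes). In run 3, Asxl1 KO 3 and 4 lay above each Rosa KO library for 13 of 40 genes (14% of all genes), with a median difference of 0.48. In run 1, Asxl1 KO 1 lay above Rosa KO 1 for 20 genes and below for 20 (45.6% and 51% of all genes), with a median difference of 0.04. Without Asxl1 KO 2 the median over the members was 0.377, and without Asxl1 KO 4 a single mitosis gene passed. Calls over all genes ranged from 80 without Asxl1 KO 3 to 373 without Asxl1 KO 2. The B cell sum was 564 and 593 CPM in the Asxl1 KO libraries of run 3, below the 2290 to 2500 CPM of Rosa KO, and its part in the result was not tested. The fitted change of the CD8 T cell markers was above 0 for 8 of 8, with a median of 0.45. Of these, Cd3g (0.83 ± 0.16, adjusted p = 0.00432), Cd3d (0.79 ± 0.16, 0.00869) and Cd2 (0.64 ± 0.16, 0.0383) rose with Asxl1 KO, and their part in the result was not tested.

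For Dnmt3a KO, too, no mitosis gene passed against Rosa KO, where 0.216% of all genes were called and 0.036% were higher. The fitted change was above 0 for 39 of 40 genes (49.8% of all genes), all but Mad2l1 at -0.09, with a median of 0.73 and a highest value of 1.61 (Kif2c), against a median of -0.003 over all genes. At an unadjusted p under 0.05, 10 were higher (3.86% of all genes) and none lower (4.17%), the lowest adjusted p was 0.0564 (Ccnb2), and DESeq2 called 1 higher (0.416% of all genes). In run 1, Dnmt3a KO 1 and 2 lay above Rosa KO 1 for 37 of 40 genes (33% of all genes), with a median difference of 1.04. Over all runs, 6 passed when Asxl1 KO 2 was left out and 1 when Asxl1 KO 1 was. Calls over all genes were 70 without Asxl1 KO 2, against 30 with all libraries. Leaving run 1 out, a choice made after seeing the data, brought the median to 0.188. The B cell sum was 1950 and 1970 CPM in Dnmt3a KO 1 and 2 and 431 CPM in Rosa KO 1, and its part in the difference was not tested; the erythroid sum, most of it globin RNA, was 493 and 595 against 563 CPM. As a mean log2 CPM over a list, the erythroid markers were at 3.96 and 4.16 in Dnmt3a KO 1 and 2 against 2.34 in Rosa KO 1, neutrophil markers at 4.39 and 3.72 against 3.00, and germinal centre and plasma cell markers at 5.57 and 4.77 against 4.19. The part of these cells in the difference was not tested either. The 3 comparisons share the Rosa KO libraries, so the direction they have in common is not independent.

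**Figure D4:**
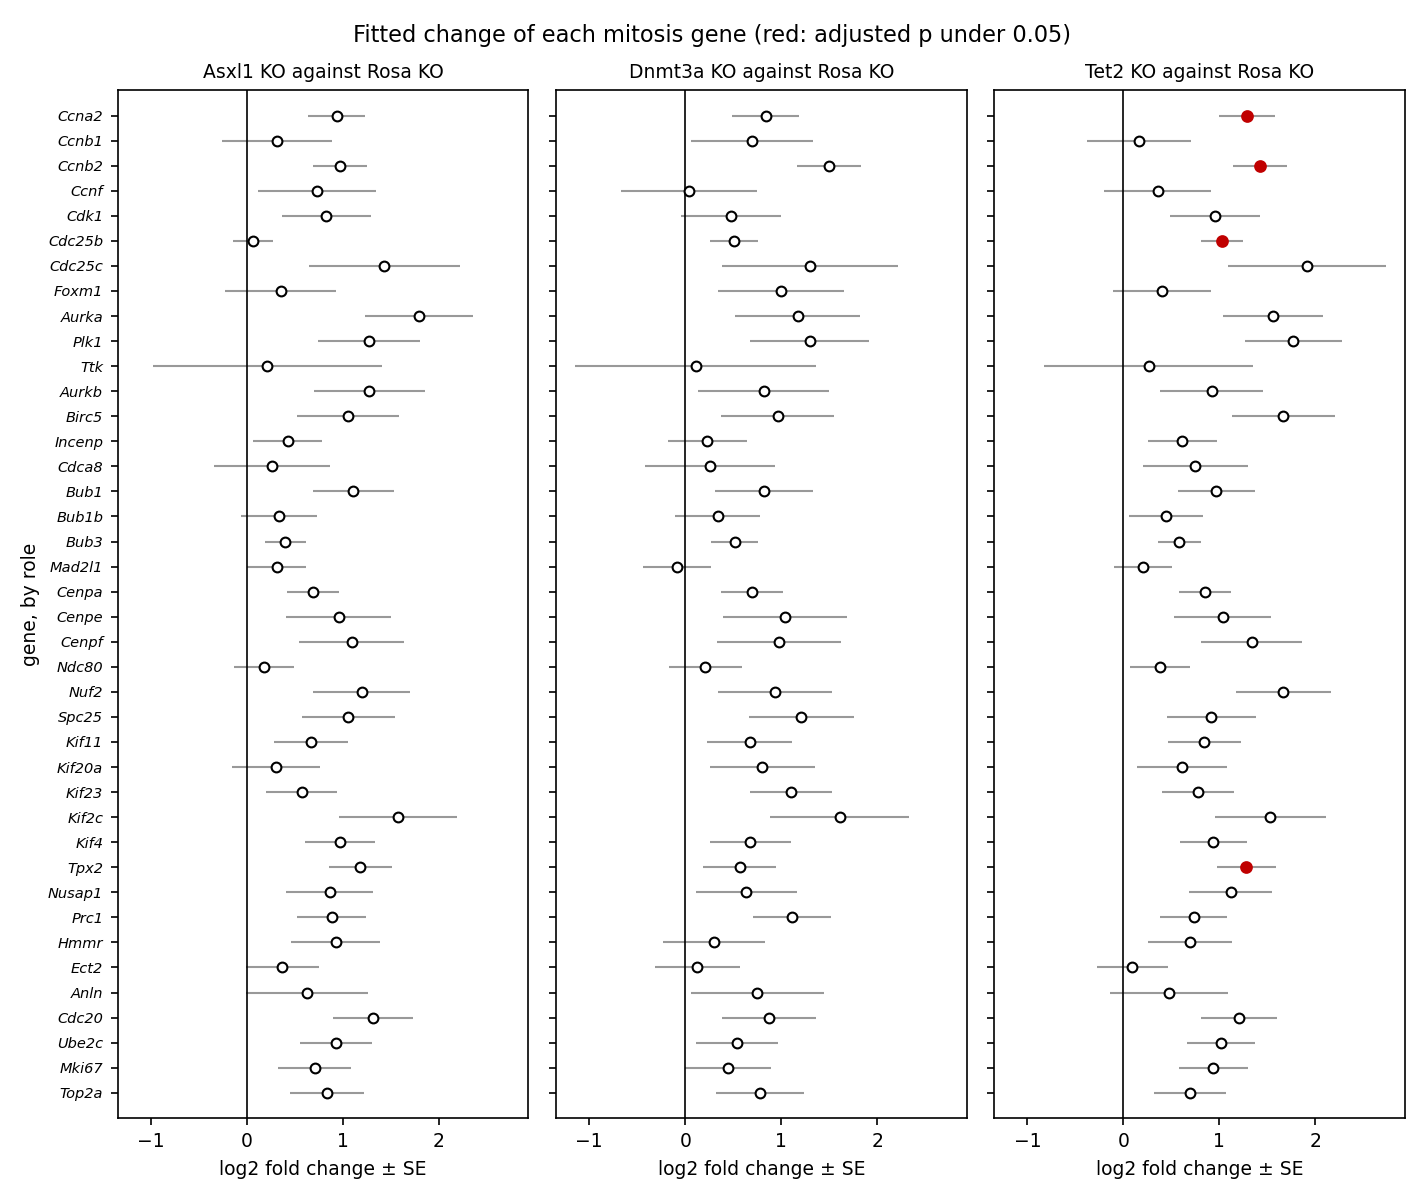
Fitted log2 fold change ± SE of each of the 40 genes (rows, by role) in Asxl1 KO, Dnmt3a KO and Tet2 KO against Rosa KO (panels), with filled red points for an adjusted p under 0.05. Red points appear only in the Tet2 KO panel, for Ccnb2, Ccna2, Cdc25b and Tpx2, while nearly every point lies right of 0 in each panel.

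Of the 7 genes for mitotic cyclins, Cdk1 and its phosphatases, 3 rose in Tet2 KO. Ccnb2 (NCBI gene 12442, chromosome 9, 70407689 to 70421554 in GRCm38) encodes cyclin B2, a partner of Cdk1. It had 29.1, 25.8, 38.8, 31.4 and 21.9 CPM in Rosa KO 1 to 5 and 26.8, 18.1, 114 and 91.0 CPM in Tet2 KO 1 to 4. The run 3 pair of Tet2 KO stood far above each control, and the run 2 pair lay within or below the control range. The log2 fold change was 1.43 ± 0.28 (SE, adjusted p = 0.00851), and 1.79 (0.000721) within run 3, but without Tet2 KO 3 or 4 it was 1.13 and 1.35 and did not pass (0.195 and 0.0755). Ccnb2 had 48.9, 30.6, 46.7 and 50.3 CPM in Asxl1 KO and 63.9, 74.9, 25.7 and 39.9 CPM in Dnmt3a KO. In Asxl1 KO the library of run 2 overlapped the controls and the others lay above them, and the fitted changes of 0.97 ± 0.28 (0.0808) and 1.5 ± 0.33 (0.0564) did not pass.

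Ccna2 (gene 12428, chromosome 3, 36564865 to 36573038), which encodes the cyclin of S phase and early mitosis, had 83.7, 58.3, 67.8, 42 and 43.7 CPM in Rosa KO and 39.4, 63.9, 182 and 130 CPM in Tet2 KO. Again only the run 3 libraries of Tet2 KO were outside the control range on the high side. The log2 fold change was 1.29 ± 0.29 (adjusted p = 0.027), and the call was lost when Rosa KO 1, 4 or 5, Dnmt3a KO 2 or Tet2 KO 3 or 4 was left out (0.0522 to 0.345). In Dnmt3a KO it had 191, 162, 33.1 and 45.7 CPM, high in run 1 and near or below the lowest control in run 2, and in Asxl1 KO 109, 88.3, 63.4 and 96.5 CPM. Exons of Ccna2 overlap those of the antisense gene Exosc9 over 12.5% of their length, and whether counting used the strand is not given in the sources used here.

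Cdc25b (gene 12531, chromosome 2, 131186436 to 131198511) encodes a phosphatase that activates Cdk1 at the onset of mitosis. It had 70.6, 50.8, 43.3, 60.2 and 29.9 CPM in Rosa KO and 91.1, 104, 98.4 and 94.5 CPM in Tet2 KO. Here the 4 Tet2 KO libraries, of runs 2 and 3, lay above the 5 Rosa KO libraries, of runs 1 and 3. Run 2 has no Rosa KO library, so Tet2 KO 1 and 2 were set against controls of other runs. This held for 1 of 40 mitosis genes, close to the share of all genes (1.43%). The log2 fold change was 1.03 ± 0.22 (adjusted p = 0.0158). Its SD in Tet2 KO was 5.55 CPM around a mean of 97.0 CPM (n = 4), against 15.6 around 51.0 CPM in Rosa KO (n = 5). In Asxl1 KO it had 63.6, 46.6, 58.1 and 46.0 CPM, inside the control range, with a log2 fold change of 0.06 ± 0.21 (0.934). Dnmt3a KO lay between, at 79.3, 98.0, 63.9 and 75.2 CPM (0.51 ± 0.25, 0.621). Without Tet2 KO 3 or 4 the Tet2 KO change was 1.00 and 1.03, with adjusted p of 0.163 and 0.0933.

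The remaining cyclin genes and Cdk1 did not pass in any knockout. Ccnb1, for cyclin B1, had 27.0, 18.3, 16.2, 15.8 and 54.2 CPM in Rosa KO, 13.8, 27.6, 21.4 and 25.8 in Asxl1 KO, 47.1, 28.1, 8.72 and 21.8 in Dnmt3a KO and 8.97, 3.57, 58.2 and 33.1 in Tet2 KO. The highest control, Rosa KO 5, was also the shallowest library, and each knockout group overlapped the controls. Unlike Ccnb2, its fitted change in Tet2 KO was 0.17 ± 0.54 (adjusted p = 0.948), and it had the opposite sign without a run term. Cdk1, the mitotic kinase itself, had 27.1, 22.9, 13.7, 23.0 and 23.4 CPM in Rosa KO, 10.7, 26.5, 39.2 and 38.2 in Asxl1 KO, 38.2, 33.2, 5.34 and 13 in Dnmt3a KO and 5.28, 22.2, 53.5 and 47.3 in Tet2 KO. Its lowest libraries were Tet2 KO 1 and Dnmt3a KO 3, both of run 2, and its highest the run 3 pair of Tet2 KO. The fitted changes against Rosa KO were 0.83 in Asxl1 KO, 0.48 in Dnmt3a KO and 0.96 in Tet2 KO. Ccnf, for cyclin F of a ubiquitin ligase, and Cdc25c, for another activator of Cdk1, were low, at 2.91 to 32.2 and 0.285 to 22 CPM over the libraries.

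Foxm1, the transcription factor of the G2 and M phase genes, had 13, 15.6, 12.5, 13.2 and 28.4 CPM in Rosa KO and 9.44, 34.3, 13.1 and 8.72 CPM in Asxl1 KO. It had 45.2, 34.4, 10.7 and 18.6 CPM in Dnmt3a KO and 7.79, 8.68, 38.3 and 24.7 CPM in Tet2 KO. Its highest libraries were the run 1 pair of Dnmt3a KO, Tet2 KO 3 and Asxl1 KO 2, and each knockout overlapped the controls. The fitted changes were 0.35 in Asxl1 KO, 1.00 in Dnmt3a KO and 0.40 in Tet2 KO, with adjusted p of 0.835, 0.749 and 0.84.

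None of the 3 mitotic kinase genes passed in a knockout, though the fitted changes of Aurka and Plk1 were among the larger ones. Aurka, the kinase of spindle poles, had 8.49, 7.28, 1.30, 9.68 and 5.89 CPM in Rosa KO and 38.1, 15.6, 10.2 and 13.4 CPM in Asxl1 KO. Each Asxl1 KO library was above each Rosa KO library for Aurka, with a log2 fold change of 1.79 ± 0.56 (adjusted p = 0.106). This held for 1 of 40 mitosis genes, close to the share of all genes (1.38%). Aurka was at 21.0, 29.7, 4.48 and 6.11 CPM in Dnmt3a KO and 6.96, 3.21, 25.4 and 19.3 CPM in Tet2 KO. Plk1, for the kinase that acts from mitotic entry to cytokinesis, had 9.83, 5.69, 5.03, 7.25 and 4.68 CPM in Rosa KO, 10.6, 17.1, 11 and 8.07 in Asxl1 KO, 35.7, 31.9, 4.32 and 6.43 in Dnmt3a KO and 5.15, 11, 30.1 and 18.3 in Tet2 KO. The fitted change was 1.77 ± 0.51 in Tet2 KO (0.0854), and it passed within run 3 (2.09, 0.0262) and with DESeq2 (1.74, 0.037).

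Ttk, for the checkpoint kinase Mps1, differed from the rest in Asxl1 KO 1. It had 26.1, 12.4, 21.8, 8.39 and 16.9 CPM in Rosa KO and 0.0617, 27.3, 11.5 and 15.6 CPM in Asxl1 KO, where the first value is a single count. It had 17.8, 39.4, 0.978 and 12 CPM in Dnmt3a KO and 4.13, 8.32, 21.4 and 34.2 CPM in Tet2 KO. The Asxl1 KO effect in run 3 minus that in run 1 was 8.47 ± 1.41 on the log2 scale (edgeR adjusted p = 0.0052). The run 1 effect is 1 library against 1, assumed to vary like the 6 libraries of run 3 that give the spread, and a fold against a single count is uncertain. Asxl1 KO 1 had the widest scatter of the set around the gene means (SD 1.37 on the log2 scale), with Anln at 5.98 CPM and Kif23 at 18 CPM at the low end and Tpx2 at 199 CPM and Aurkb at 85.0 CPM at the high end. The same library held the highest erythroid sum, 3000 CPM, and the part of these cells in the pattern was not tested.

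The chromosomal passenger complex corrects wrong attachments through the kinase Aurora B, which is held by Incenp, survivin (Birc5) and borealin (Cdca8). None of its 4 genes passed in a knockout. Incenp, the member with the highest mean CPM of the complex, had 79.8, 38.6, 18.2, 38.4 and 32.6 CPM in Rosa KO, 31.9, 94.7, 43.7 and 41.9 in Asxl1 KO, 81.8, 90.1, 33.6 and 44.5 in Dnmt3a KO and 34.1, 63.4, 56.6 and 70.2 in Tet2 KO. Rosa KO 1 and the run 1 Dnmt3a KO libraries were alike, and the groups overlapped. Birc5 ranged from 13.7 to 55.5 CPM in Rosa KO and from 14.5 to 146 CPM in Tet2 KO, with a fitted change of 1.67 ± 0.53 (adjusted p = 0.173). Aurkb ranged from 2.61 to 33.8 CPM in Rosa KO and from 16.5 to 85.0 CPM in Asxl1 KO (1.27 ± 0.58, 0.29), and Cdca8 from 18 to 61.1 CPM in Rosa KO and from 21.9 to 93.6 CPM in Tet2 KO.

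The spindle checkpoint genes had the smallest median change of the larger role groups, 0.37 in Asxl1 KO, 0.43 in Dnmt3a KO and 0.52 in Tet2 KO over 4 genes. Bub1, a checkpoint kinase, had 13.6, 20.9, 31.9, 14.4 and 15.6 CPM in Rosa KO, 49.8, 34.4, 22.6 and 33.0 in Asxl1 KO, 61.8, 55.9, 7.62 and 15.6 in Dnmt3a KO and 12.5, 21.3, 34.9 and 42.3 in Tet2 KO. In Asxl1 KO only the library of lowest level fell inside the control range, and the fitted change was 1.11 ± 0.42 (adjusted p = 0.182). Bub3, a scaffold of the checkpoint, had 130, 67.2, 147, 130 and 118 CPM in Rosa KO, 95.9, 114, 192 and 164 in Asxl1 KO, 152, 149, 88.9 and 128 in Dnmt3a KO and 103, 120, 204 and 181 in Tet2 KO. The run 3 pairs of Asxl1 KO and Tet2 KO lay above the other 13 libraries, and the groups overlapped. Bub1b, the gene of the checkpoint protein BubR1, and Mad2l1, that of Mad2, had fitted changes of -0.09 to 0.45 in the knockouts.

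Among 6 kinetochore and centromere genes none passed in a knockout. Cenpa, the centromeric histone H3, had 30.1, 51.6, 65.1, 34.2 and 57.3 CPM in Rosa KO, 66.6, 54.7, 76.2 and 44.6 in Asxl1 KO, 53.0, 65.3, 39.4 and 40.9 in Dnmt3a KO and 39.6, 35.2, 116 and 94.4 in Tet2 KO. The run 3 pair of Tet2 KO was above the other 15 libraries. Cenpe, a kinesin that brings chromosomes to the metaphase plate, had 47.0, 41.9, 78.8, 68.1 and 76.9 CPM in Rosa KO, 77.8, 254, 59.8 and 81 in Asxl1 KO, 167, 182, 54.9 and 111 in Dnmt3a KO and 63, 111, 175 and 152 in Tet2 KO. Its highest level was that of Asxl1 KO 2, the highest library of Cenpf (204 CPM) as well. Fitted changes in Tet2 KO were 0.85 ± 0.27 for Cenpa, 1.03 ± 0.50 for Cenpe, 1.33 ± 0.53 for Cenpf and 1.67 ± 0.50 for Nuf2, against 0.38 ± 0.32 for Ndc80 and 0.91 ± 0.47 for Spc25, where Ndc80, Nuf2 and Spc25 encode subunits of the same microtubule-binding complex.

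Tpx2 (gene 72119, chromosome 2, 152847964 to 152895321), which activates Aurora A on the spindle, was the only one of 9 spindle motor and microtubule genes to pass in a knockout. It had 62.9, 30.3, 43.4, 26.4 and 29.2 CPM in Rosa KO and 35.9, 45.6, 110 and 74.7 CPM in Tet2 KO. The run 2 libraries of Tet2 KO lay within the control range and the run 3 libraries above it, and the log2 fold change was 1.28 ± 0.31 (adjusted p = 0.0324). It had 199, 87.0, 50.4 and 35.3 CPM in Asxl1 KO and 158, 116, 27.4 and 32.5 CPM in Dnmt3a KO, in both with the highest values in run 1, for changes of 1.18 ± 0.33 (0.0643) and 0.57 ± 0.38 (0.751). The Tet2 KO call did not hold without Rosa KO 1, 2, 4 or 5, without Dnmt3a KO 2 or 3, or without Tet2 KO 3 or 4 (adjusted p of 0.0527 to 0.469).

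Kif11, the motor that pushes spindle poles apart, had 143, 116, 126.4, 81.7 and 104 CPM in Rosa KO, 94.3, 252, 132.4 and 150 in Asxl1 KO, 242, 292, 72.8 and 125.2 in Dnmt3a KO and 93.6, 140, 239 and 236 in Tet2 KO. Kif4, a chromosome-bound kinesin, had 53.0, 23.8, 30.3, 22.1 and 15.1 CPM in Rosa KO, 74.8, 79.1, 30.6 and 32.7 in Asxl1 KO, 84.7, 78.4, 23.4 and 43.2 in Dnmt3a KO and 18.1, 35.9, 66.5 and 56.2 in Tet2 KO. Both followed the pattern of high run 1 Dnmt3a KO, high Asxl1 KO 2 and high run 3 Tet2 KO libraries, and both overlapped the controls. Exons of Kif4 overlap the antisense gene Pdzd11 over 15.1% of their length. Prc1, which bundles microtubules of the central spindle, ranged from 19.6 to 38.7 CPM in Rosa KO and from 41.9 to 81.4 CPM in Dnmt3a KO. Named after its values were seen, Prc1 had each Dnmt3a KO library above each Rosa KO library, at 1.11 ± 0.41 (adjusted p = 0.425). This held for 1 of 40 mitosis genes, close to the share of all genes (2.02%). Of the others, Kif2c, a microtubule depolymerase, had fitted changes of 1.57, 1.61 and 1.53 in Asxl1 KO, Dnmt3a KO and Tet2 KO with SEs of 0.58 to 0.73. Kif23, a motor of the central spindle, was at 0.57 to 1.10, Nusap1, a spindle-associated protein, at 0.64 to 1.12, Hmmr, a spindle and hyaluronan-binding protein, at 0.30 to 0.93, and Kif20a, a kinesin of cytokinesis whose exons overlap Cdc23 over 29.3% of their length, at 0.30 to 0.80.

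For cytokinesis, the 2 genes had the lowest median change in Tet2 KO of the role groups, 0.28. Anln, the actin-binding protein anillin, had 40.8, 6.96, 17.7, 28.7 and 17.1 CPM in Rosa KO, 5.98, 47.8, 29.7 and 23.6 in Asxl1 KO, 48.7, 64.7, 11.6 and 27.4 in Dnmt3a KO and 9.06, 16.6, 37.3 and 38.3 in Tet2 KO. Its values in Rosa KO spanned most of the range of the other groups. Ect2, the exchange factor that activates RhoA at the cleavage furrow, was at 16.3 to 25.6 CPM in Rosa KO and 9.35 to 25.1 CPM in Tet2 KO (0.09 ± 0.37, adjusted p = 0.958).

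Both co-factors of the anaphase-promoting complex had positive fitted changes that did not pass. Ube2c, its ubiquitin-conjugating enzyme, had 68.7, 23.4, 15.8, 49.4 and 37.9 CPM in Rosa KO, 97.2, 50.2, 50 and 39.7 in Asxl1 KO, 82, 121, 13 and 27.5 in Dnmt3a KO and 20.7, 22.3, 87.3 and 81.1 in Tet2 KO. Cdc20, its activator, had 12.1, 8.14, 20.1, 12.3 and 8.61 CPM in Rosa KO, 47.3, 24.8, 16.2 and 22.1 in Asxl1 KO, 42, 19.1, 11.4 and 12.3 in Dnmt3a KO and 9.44, 14.8, 33.8 and 31.4 in Tet2 KO. In Asxl1 KO 3 of the 4 Cdc20 values were above the highest control, and the fitted changes were 1.31 ± 0.42 (adjusted p = 0.11) in Asxl1 KO and 1.21 ± 0.40 (0.158) in Tet2 KO. Exons of Ube2c overlap the antisense gene Tnnc2 over 22.8% of their length.

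Mki67 and Top2a, the most abundant of the set per kilobase, encode the protein coat of mitotic chromosomes and the topoisomerase that untangles sister chromatids. Mki67 had 407, 596, 727, 575 and 718 CPM in Rosa KO, 946, 1560, 630 and 663 in Asxl1 KO, 1030, 978, 450 and 742 in Dnmt3a KO and 570, 1170, 1410 and 1290 in Tet2 KO. Tet2 KO 2 was nearly as high as the run 3 libraries of its group, while Tet2 KO 1 lay within the controls. The log2 fold change in Tet2 KO was 0.94 ± 0.36 (adjusted p = 0.291), and within run 3 it was 1.05 and passed (0.00011). The Asxl1 KO effect on Mki67 was smaller in run 3 than in run 1 by 1.21 ± 0.28 on the log2 scale, a difference of -1.21 with an edgeR adjusted p of 0.0257. That p takes its spread from the 6 libraries of run 3, and the single Asxl1 KO and Rosa KO libraries of run 1 are assumed to vary like them. Besides Ttk it was the only mitosis gene that passed this test, in which 1.48% of 12973 genes were higher and 1.74% lower. Top2a had 411, 255, 389, 342 and 313 CPM in Rosa KO, 498, 770, 383 and 453 in Asxl1 KO, 1050, 1060, 213 and 347 in Dnmt3a KO and 248, 353, 648 and 551 in Tet2 KO. Its values in each knockout reached from inside or below the control range to well above it, and the fitted changes of 0.83, 0.78 and 0.70 did not pass.

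**Figure D5:**
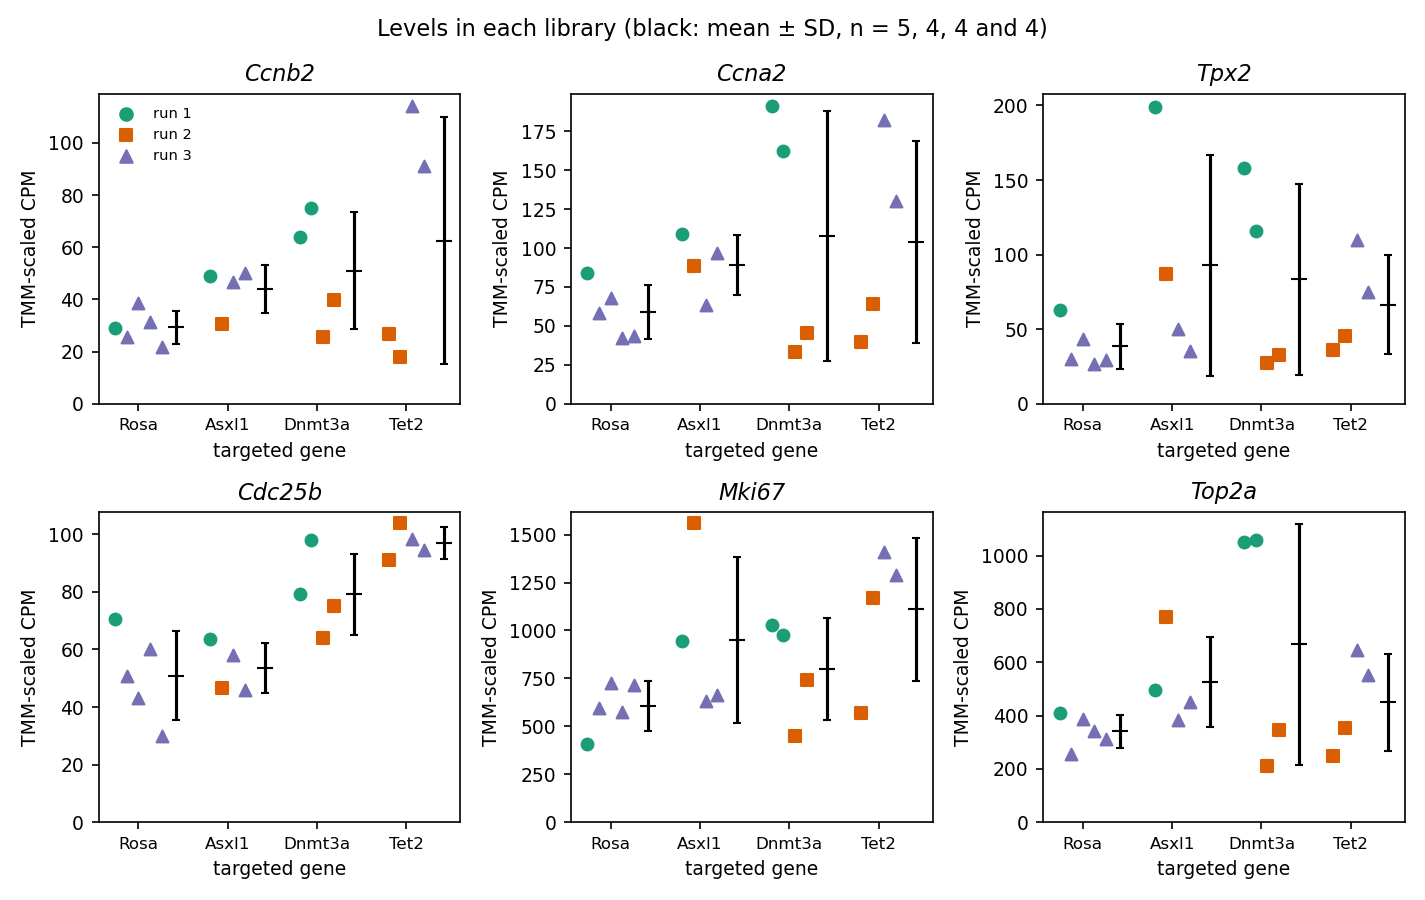
TMM-scaled CPM (vertical axis) of Ccnb2, Ccna2, Tpx2, Cdc25b, Mki67 and Top2a in each library by targeted gene (horizontal axis), with colour and marker for the run and black bars for the mean ± SD. Cdc25b is at 91.1 to 104 CPM in the 4 Tet2 KO libraries and at 29.9 to 70.6 CPM in the 5 Rosa KO libraries, while the other genes are high in the run 3 libraries of Tet2 KO.

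Over the 3 comparisons between knockouts, 1 mitosis gene passed, and in 1 comparison only. Cdc25b was lower in Asxl1 KO than in Tet2 KO by a log2 difference of -0.97 ± 0.22 (adjusted p = 0.0382), where 0.115% of all genes were lower, and the 4 Asxl1 KO libraries (46.0 to 63.6 CPM) did not overlap the 4 Tet2 KO libraries (91.1 to 104 CPM). The call was lost when any 1 library of Asxl1 KO or Tet2 KO, or Dnmt3a KO 2, 3 or 4, was left out, while the difference stayed between -1.07 and -0.92 over these 17 fits. No mitosis gene passed in Asxl1 KO against Dnmt3a KO by edgeR (0.353% of all genes called) or DESeq2 (1.58%), and at an unadjusted p under 0.05 none was higher (6.29% of all genes) or lower (4.7%). The median was 0.09, and -0.58 without Asxl1 KO 2. Likewise 0 passed in Dnmt3a KO against Tet2 KO by edgeR (0.0937% of all genes called) or DESeq2 (0.532%). At an unadjusted p under 0.05, 1 was lower (3.23% of all genes) and none higher (2.37%), with a median of -0.22 that ranged from -0.45 without Tet2 KO 1 to 0.03 without Dnmt3a KO 3.

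The order of the knockouts was not the same in the 3 runs. Asxl1 KO is a single library in runs 1 and 2, and a difference between runs was not tested here. In run 3, Tet2 KO 3 and 4 lay above Asxl1 KO 3 and 4 for 37 of 40 genes (22.3% of all genes), with a median difference of 0.83. In run 2, Asxl1 KO 2 lay above the 4 Dnmt3a KO and Tet2 KO libraries for 34 genes (18.9% of all genes) and below them for 1, Cdc25b (20% of all genes). The median difference there was 1.15 against Tet2 KO and 1.33 against Dnmt3a KO. In run 1, Dnmt3a KO 1 and 2 lay above Asxl1 KO 1 for 30 genes (39.4% of all genes) and below it for 6 (37.3%), namely Ccnf, Aurka, Aurkb, Cdc20, Cenpa and Tpx2. Cdc25b kept its order in both shared runs of Asxl1 KO and Tet2 KO, being higher in Tet2 KO by 1.03 and 0.89 in fits within run 2 and run 3, neither of which passed alone.

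By the fitted run terms, mitosis genes tended to be lower in run 2 than in the other runs. Library means of the mitosis genes in log2 CPM overlapped between runs. They were 5.05 to 6.11 in run 1, 4.08 to 5.77 in run 2 and 4.55 to 6.09 in run 3. Run accounted for a median of 19.6% of the variance in the mitosis genes and 25.6% over all tested genes. Against run 1, 9 genes were lower in run 2 (8.46% of all genes): Tpx2, Ube2c, Ccna2, Ccnb2, Aurka, Bub1, Cdc20, Kif4 and Plk1. The median change was -0.98 (0.015 over all genes), and the largest of the 9 were -2.10 ± 0.37 for Ube2c (adjusted p = 0.000353) and -2.05 ± 0.53 for Aurka (0.00918). Upper-quartile scaling shifted the median of all genes by 0.12 in this comparison, turned the split of calls from 984 higher and 1174 lower to 1244 higher and 835 lower, and left 6 mitosis genes lower. The count of mitosis genes was 5 without Dnmt3a KO 1 or 3, 17 without Asxl1 KO 1 and 24 without Asxl1 KO 2. Calls over all genes in either direction were 2158, and ranged from 1452 without Dnmt3a KO 3 to 2190 without Rosa KO 3. Run 3 against run 1 had 1 lower gene, Tpx2 at -1.46 ± 0.32 (0.00312, with 7.76% of all genes lower). In run 3 against run 2, 6 were higher (6.49% of all genes): Ccnb2, Cenpa, Ccna2, Bub3, Cdk1 and Ube2c, with 1.46 ± 0.28 for Ccnb2 (0.000909). That count ranged from 1, without Tet2 KO 1 or Tet2 KO 3, to 18, without Asxl1 KO 2. Calls over all genes in either direction ranged from 1060 without Tet2 KO 2 to 2055 without Asxl1 KO 1. What distinguishes the runs is not stated. Markers of several cell types moved with them, and their part was not tested. In run 2 against run 1, 5 of 8 CD8 T cell markers, 4 of 9 erythroid, 2 of 10 neutrophil and 2 of 10 myeloid markers were lower, with median changes of -0.57, -3.24, -2.58 and -1.01. In run 3 against run 2 none of 9 erythroid markers was called by edgeR (1 lower at an unadjusted p under 0.05), while 2 of 8 CD8 T cell markers were higher.

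Some other genes of the cell cycle also passed. Of 96 further mitosis genes, Tubb4b, a tubulin, and Cks1b, a Cdk-binding protein, rose in Asxl1 KO (0.86 ± 0.17, adjusted p = 0.00572, and 1.83 ± 0.43, 0.0265) and in Tet2 KO (0.83 ± 0.17, 0.0108, and 1.71 ± 0.42, 0.0346). Depdc1a also rose in Tet2 KO (1.57 ± 0.39, 0.0379), and none of the 96 passed in Dnmt3a KO. Of 26 S phase genes, 5 rose in Tet2 KO: Dut, which limits dUTP, Mcm2, Mcm3 and Mcm6 of the replicative helicase, and the sliding clamp Pcna, with changes of 0.55 to 0.98. Only Dut passed in Asxl1 KO (0.85 ± 0.21, 0.0391) and Dnmt3a KO (1.23 ± 0.25, 0.0258). Of 15 Cdk inhibitor and antiproliferative genes, Tob1 fell in Asxl1 KO (-1.60 ± 0.30, 0.00416) and Tet2 KO (-1.31 ± 0.33, 0.0381), and Btg1 fell in Asxl1 KO (-0.69 ± 0.16, 0.0296). Neither the 17 genes of the anaphase-promoting complex, the 20 of the DREAM, E2F and retinoblastoma group nor the 9 G1 cyclins and kinases had a member that passed in a knockout against Rosa KO. Rbl2, a pocket protein of the DREAM complex, was higher in Asxl1 KO than in Tet2 KO (0.70 ± 0.15, 0.0256). Among the marker lists, Cd3d also rose in Tet2 KO (0.68 ± 0.17, 0.0405), where 5 of 8 CD8 T cell markers were above 0 (median 0.105). Bst2, on the dendritic cell list, rose in Asxl1 KO (0.95 ± 0.23, 0.0303) and Tet2 KO (1.06 ± 0.23, 0.0223). Of the 7 genes of that list, 3 were above 0 in Asxl1 KO (median -0.111) and 1 in Tet2 KO (-0.212). Prdm1, on the plasma cell list, was higher in Asxl1 KO than in Dnmt3a KO (0.87 ± 0.19, 0.0463). In that comparison 2 of 10 germinal centre and plasma cell markers were above 0 (median -0.766). Bst2 and Prdm1 therefore do not stand for their lists. Between runs, 14 of the 96 further mitosis genes were lower and 1 higher in run 2 than in run 1, and 10 of the 26 S phase genes were lower.

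Over the 17 libraries, the genes outside the set whose log2 CPM was most like the mean of the mitosis genes were Trip13 (Pearson r 0.933), which disassembles checkpoint complexes, Stmn1 (0.926), a microtubule destabiliser, Rrm2 (0.926) of ribonucleotide reductase and Hmgb2 (0.913), a chromatin protein. They were followed by Uhrf1 (0.89), Depdc1a (0.886), Melk (0.876), Stil (0.859), Fbxo5 (0.856) and Rrm1 (0.845). These values describe likeness over the same libraries and runs.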

How the data were processed

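RNA was measured in 17 libraries. Libraries were made with a stranded total RNA kit, per the labels' protocols, although the labels' molecule field reads genomic DNA. The authors deposited raw counts per gene, with NCBI gene identifiers and symbols. Mouse build mm10, STAR 2.5.3a and DESeq2 1.26.0 are named, without roles, per the submitters' processing notes. The tool that counted reads, with its strand setting, is not given in the sources used here. Of 24594 identifiers, 24570 matched RefSeq GRCm38.p6, from which gene positions and promoters were taken. Exon lengths and exon overlaps with other genes came from the GENCODE vM21 annotation.

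Counts were scaled by TMM and filtered with filterByExpr (minimum count 10, total 15), leaving 13881 genes. They were tested with edgeR 4.0.16 (limma 3.58.1, R 4.3.3) by a robust quasi-likelihood F test with group and run as terms, on 11 residual degrees of freedom (common biological coefficient of variation 0.604). Benjamini-Hochberg adjustment ran over all tested genes of each comparison, with a threshold of 0.05. Log2 CPM has a prior count of 2. The change of the Asxl1 KO effect between runs 1 and 3 was an interaction term over 8 libraries with 4 residual degrees of freedom. The edgeR step was tested on simulated data. Counting error is small for most values, the lowest member counts being 1 to 339 per library.

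Alternatives were DESeq2 1.42.0, RLE and upper-quartile scaling, no filter, no run term, a replicate block, fits within a run or on 2 groups, and each library left out. The members and gene lists were chosen with earlier results of these data known. Values per library are given for members that passed in any of 9 comparisons (of 13, the 12 with the lowest adjusted p), the member with the highest mean CPM of each role, and Mki67, Top2a, Ccnb1, Cdk1, Plk1 and Bub1. Other members are given by range or fitted change, and non-members where they passed between groups (between runs, as counts).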

Additional observations from a re-analysis of the deposited data

Results flagged for a closer look

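In 8 of 160 sets formed by a gene and a group, 1 library stood far from the rest of its group by Dixon's criterion, and chance alone flags about 1 set in 20. Asxl1 KO 2 was the high library for 3 genes: Cenpe at 254 CPM (next 81), Cenpf at 204 CPM (next 68.1) and Cdca8 at 68.8 CPM (next 27.6). In Asxl1 KO, Cdc25c was at 17.4 CPM in Asxl1 KO 4 (next 5.61). In Rosa KO, Bub1b was at 48.6 CPM in Rosa KO 1 (next 24.3), Kif2c at 10.2 CPM in Rosa KO 3 (next 4.51) and Foxm1 at 28.4 CPM in Rosa KO 5 (next 15.6). The low one was Cenpf in Tet2 KO 1, at 46.9 CPM (next 124.2).

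The change of Cdc25b against Rosa KO differed between Asxl1 KO and Tet2 KO by -0.97 on the log2 scale (edgeR adjusted p = 0.0382). The Asxl1 KO effect differed between run 3 and run 1 by -1.21 for Mki67 (adjusted p = 0.0257) and by 8.47 for Ttk (0.0052), and the Ttk value rests on a single count in Asxl1 KO 1. In run 1 this effect is 1 Asxl1 KO library against 1 Rosa KO library, and the spread comes from run 3 alone.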

How the results depend on the processing

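Of the summary values, 374 were counted as unmoved under an alternative and 76 as moved. A value counted as unmoved could still change its sign. For Dnmt3a KO against Tet2 KO, the mitosis gene median counted as unmoved in 17 of 17 fits with a library left out. It ranged there from -0.453 to 0.0261, against -0.216 with all libraries. The number of mitosis genes that passed against Rosa KO was 0 in Asxl1 KO, but 15 without the low-count filter, 5 within run 1 (3 higher, 2 lower) and 4 with DESeq2. In Dnmt3a KO it was 0, but 3 without the filter, 2 on the 2 groups alone, 3 within run 1 and 1 with DESeq2. In Tet2 KO it was 4, but 0 without a run term, 15 without the filter, 8 on the 2 groups alone and 18 within run 3. For Asxl1 KO against Dnmt3a KO it was 0, but 8 lower within run 1. For Asxl1 KO against Tet2 KO it was 1, but 0 without a run term, within run 2 or without run 1, and 2 within run 3. Run 2 against run 1 gave 9, but 18 without the filter and 15 with DESeq2, run 3 against run 1 gave 1, but 7 and 3, and run 3 against run 2 gave 6, but 3 with upper-quartile factors. Calls over all genes moved the same way in many of the fits between groups, and their counts are given in the last paragraph. The cause of these moves was not tested. Leaving out run 1 was chosen after seeing the data.

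Whether replicate numbers pair the libraries could not be decided, since only 10 of the 24 same-number pairs lay in the same run. Of the 24, 2 correlated above 0.1 in their deviations from the group means (r of -0.206 to 0.163). With the replicate number as a block, 0 mitosis genes passed in Tet2 KO against Rosa KO, 0 in Asxl1 KO against Tet2 KO, 3 in run 2 against run 1, and 0 in run 3 against run 1 and against run 2. Over all genes the block changed the calls from 227 to 51 in Asxl1 KO, from 30 to 0 in Dnmt3a KO and from 204 to 52 in Tet2 KO against Rosa KO. For Asxl1 KO against Dnmt3a KO, Asxl1 KO against Tet2 KO and Dnmt3a KO against Tet2 KO they went from 49 to 2, 78 to 37 and 13 to 1. For run 2 against run 1, run 3 against run 1 and run 3 against run 2 they went from 2158 to 389, 1880 to 22 and 1674 to 479.

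The median over the mitosis genes moved to 0.0348 in Asxl1 KO within run 1 and to 0.188 in Dnmt3a KO without run 1. For Asxl1 KO against Dnmt3a KO it was -0.9 within run 1, 1.28 within run 2 and 0.62 without run 1, and for Asxl1 KO against Tet2 KO 1.13 within run 2 and -0.81 within run 3. Signs turned in Asxl1 KO for Mki67 (-0.017 within run 3), Cdk1 (-1.34 within run 1) and Ccnb1 (-0.242 without a run term, -0.367 on 2 groups, -0.971 within run 1, -0.132 within run 3, and -0.36 to 0.70 with libraries left out). They turned in Dnmt3a KO without run 1 for Mki67 (-0.321), Top2a (-0.0274) and Bub1 (-0.284), and Mki67 ranged from -0.0591 to 0.715 with libraries left out. In Tet2 KO Ccnb1 was -0.0153 without a run term, and it ranged from -0.449 (without Tet2 KO 3) to 0.624 with libraries left out.

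With each library left out in turn, the count of mitosis genes that passed was 0 to 1 in Asxl1 KO, 0 to 6 in Dnmt3a KO and 0 to 14 in Tet2 KO against Rosa KO. It was 0 to 3 for Asxl1 KO against Dnmt3a KO, 0 to 1 for Asxl1 KO against Tet2 KO, 5 to 24 for run 2 against run 1, 1 to 3 for run 3 against run 1 and 1 to 18 for run 3 against run 2. Calls over all genes were 80 to 373 in Asxl1 KO, 21 to 70 in Dnmt3a KO and 33 to 363 in Tet2 KO against Rosa KO. They were 11 to 236 for Asxl1 KO against Dnmt3a KO and 35 to 88 for Asxl1 KO against Tet2 KO. Between runs they were 1452 to 2190 for run 2 against run 1 and 1184 to 1996 for run 3 against run 1. For run 3 against run 2 they were 1060 to 2055. The median over the mitosis genes ranged from -0.578 to 0.434 for Asxl1 KO against Dnmt3a KO, -0.789 to 0.109 for Asxl1 KO against Tet2 KO, -1.61 to -0.587 for run 2 against run 1 and 0.292 to 1.25 for run 3 against run 2. The largest moves of these 4 medians came without Asxl1 KO 2.

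Calls over all genes moved by more than 1.5 times in Asxl1 KO (23 without a run term, 568 without the filter, 607 within run 1, 614 within run 3, 658 with DESeq2). In Dnmt3a KO they were 19 without a run term, 49 higher and 76 lower without the filter, 15 without run 1 and 150 with DESeq2, and in Tet2 KO 23, 378, 403 within run 3 and 405 with DESeq2. For Asxl1 KO against Dnmt3a KO they were 6 without a run term, 309 without the filter, 19 on 2 groups, 1301 within run 1, 0 within run 2, 2 without run 1 and 216 with DESeq2. For Asxl1 KO against Tet2 KO they were 27, 192, 24 within run 2, 159 within run 3 and 177 with DESeq2, and for Dnmt3a KO against Tet2 KO 1, 66 and 73 with DESeq2. Fits within run 1 rest on 4 libraries and 1 residual degree of freedom, so that the single Rosa KO and Asxl1 KO libraries are assumed to vary like the pair of Dnmt3a KO. Run 2 has no Rosa KO library and run 1 a single one. In the shallowest library, Rosa KO 5, 1 count is worth 0.151 CPM, which limits the lowest values.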
